A study of Oryctolagus cuniculus with 16 samples.

Results

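The genes described here are those of redox defence in the wall of the rabbit basilar artery: the NADPH oxidases NOX1 to NOX5, the superoxide dismutases, catalase, the glutathione peroxidases, the peroxiredoxins with sulfiredoxin, the thioredoxin genes, the glutathione transferases with the enzymes of glutathione synthesis, the haem oxygenases and quinone reductases, and the metallothioneins. They were chosen by gene symbol, and 43 of the 50 matching symbols were detected, that is, counted in 1 library or more, out of 11925 detected genes. The 7 without a count were NOX3, GPX6, GSTT4, MGST2, MT4, TXNDC2 and TXNDC8. Other genes of the same families, such as SOD2, TXN, GPX4 and the MT1 and MT2 metallothioneins, had no row under such a symbol in the counts used. They were not analysed here, and nothing can be said of their expression.

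The study asked which genes respond in the wall of the basilar artery (BA) and of its terminus (BT), where the vessel divides, when flow through the artery is raised. Flow was raised by tying off both common carotid arteries of female New Zealand white rabbits (ligated, rabbits 5 and 6), and 2 further females had a sham operation (unligated, rabbits 3 and 4). All 4 were examined 24 h after surgery, and the labels name no other treatment, transgene or deletion. Intima and media were cut by laser microdissection from the BA and the BT of each rabbit, which gave 16 libraries in 8 groups of 2 rabbits, each library pooling fragments from several sections.

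Superoxide is made by the NADPH oxidases and is turned into hydrogen peroxide by the superoxide dismutases. Hydrogen peroxide is then removed by catalase, by the glutathione peroxidases and by the peroxiredoxins, which draw on reduced glutathione and thioredoxin, and sulfiredoxin restores peroxiredoxins whose catalytic cysteine has been over-oxidized. Metallothioneins are small cysteine-rich proteins that bind zinc and copper. In the arterial wall, these enzymes set how long nitric oxide from the endothelium survives, since superoxide consumes it, and many of their genes are targets of the transcription factor NFE2L2.

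The libraries held 5211886 to 17686105 counts on named genes in the intima and 2154863 to 11219236 in the media. The levels below are library-scaled counts (CPM, by the trimmed mean of M values or TMM, over all 16 libraries), which compare 1 gene between libraries and not 1 gene with another, since gene length was not used. The 8 endothelial markers (PECAM1, VWF, CDH5, TIE1, TEK, KDR, CLDN5 and EMCN) summed to 1043 to 5171 CPM in the intima and to 39.8 to 868 CPM in the media, so the layers did not overlap. The smooth muscle markers (4 of 6 in the table) summed to 66572 to 117560 CPM in the media and to 10439 to 73951 CPM in the intima, so the intimal strips also held smooth muscle RNA. The leptomeningeal and fibroblast list (7 of 8 genes, among them OGN, DCN and COL1A2) was lower after ligation, at 598 to 4229 CPM against 3840 to 17666 CPM in the intima and at 5176 to 6345 CPM against 13858 to 21972 CPM in the media. The blood list (4 of 7 genes, led by S100A9 and ALAS2, with no haemoglobin gene in the table) stood at 1019 to 2630 CPM in the ligated and 44.8 to 1013 CPM in the sham intima, and at 52.9 to 733 CPM against 2.03 to 76.1 CPM in the media. Of its genes, S100A9 alone separated the flow groups in both layers. It was at 723 to 2574 CPM in the ligated and 17.1 to 315 CPM in the sham intima. In the media it was at 32.0 to 703 CPM against 0 to 12.3 CPM. ALAS2, S100A8 and PTPRC overlapped between the flow groups in each layer. These lists differ between the flow groups together with the genes below, and their part in the results was not tested beyond the values given beside each. In bulk tissue of this kind, fewer cells of a type and less RNA per cell cannot be told apart.

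After ligation, SRXN1, HMOX2, GSTO1 and GPX1 stood higher in all 8 ligated libraries than in any of the 8 sham libraries, and MT3 and GSTK1 stood lower in all 8. That was 4 and 2 of the 40 members with a mean above 1 CPM, against 1.26% of 9082 genes that were wholly above and 0.848% that were wholly below. The 16 libraries come from only 4 rabbits, so this count carries no test. It was chosen after the data were seen, and the members were chosen with earlier results of these data known. A share above that of all genes may therefore be partly built in. In the separate tests of each tissue, SRXN1 and GSTO1 rose in the BT media, and no other member passed the q-value threshold of 0.05 with ligation in any of the 4 tissues.

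**Figure D1:**
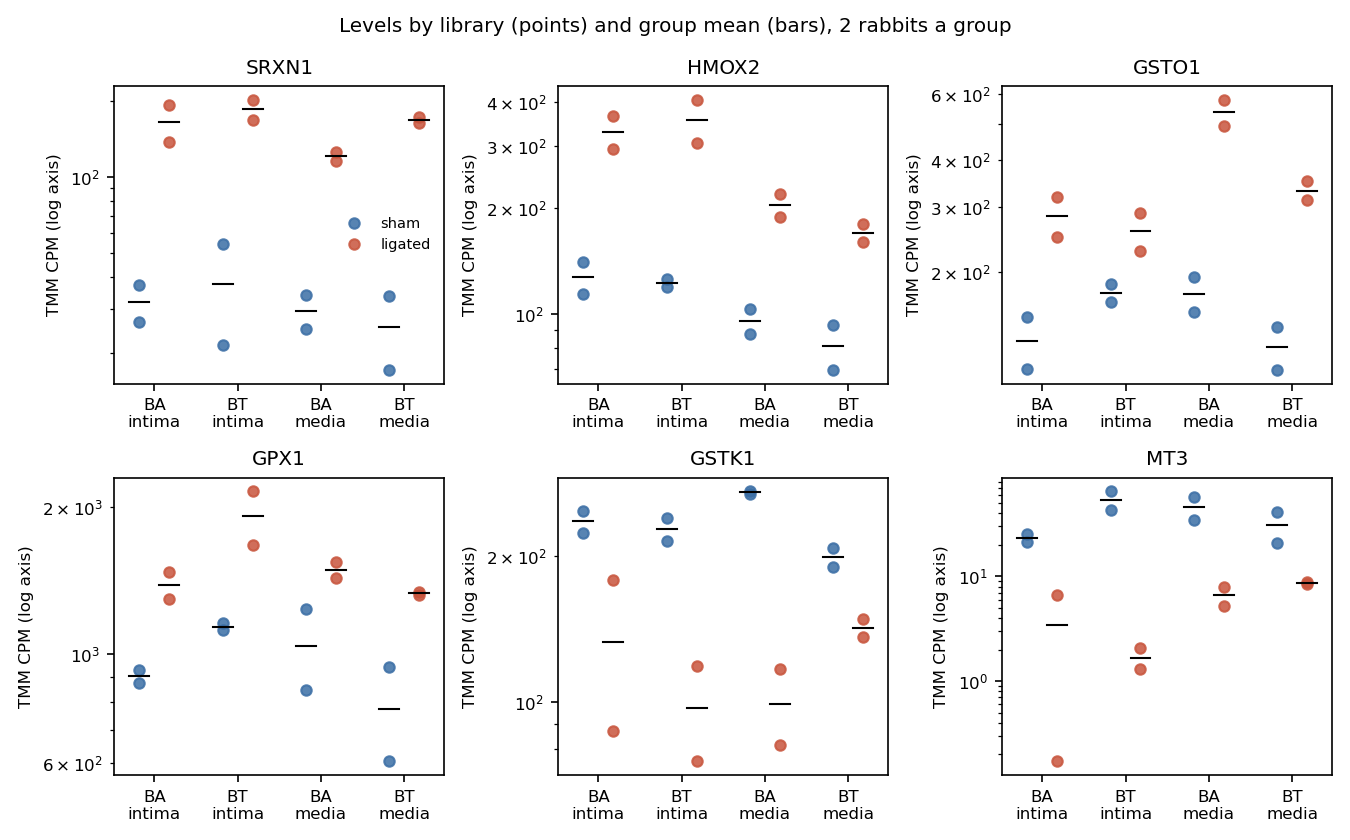
Levels of 6 members in each library, in TMM-scaled CPM on log axes, by tissue, with sham rabbits in blue, ligated rabbits in red and a bar at the mean of the 2 rabbits. In SRXN1, HMOX2, GSTO1 and GPX1 all 8 ligated points lie above all 8 sham points, and in GSTK1 and MT3 they all lie below. The 6 members were picked because their flow groups did not overlap.

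Sulfiredoxin (SRXN1), which repairs over-oxidized peroxiredoxins, was one of the members that passed. In the BT media, SRXN1 was at 17.1 and 33.7 CPM in the sham rabbits and at 172 and 164 CPM in the ligated rabbits. The ligated values were within a narrow range and several times the higher sham value. The log2 fold change was 2.72 (SE 0.45, n = 2 rabbits a group, edgeR quasi-likelihood test, q = 0.0092), and 102 of 8783 genes, or 1.16%, passed as higher in that tissue. The call was lost without rabbit 6 (q = 0.064). Across all tissues, the sham libraries ran from 17.1 to 54.0 CPM with a median of 30.2 CPM, and the ligated libraries from 116 to 203 CPM with a median of 166 CPM.

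In the other tissues the log2 value of SRXN1 was smaller and did not pass. In the BA media it was at 25.0 and 34.0 CPM in the sham rabbits and at 126 and 116 CPM in the ligated rabbits (log2 fold change 2.05, SE 0.43, q = 0.077). In the BA intima the levels were 26.7 and 37.2 CPM against 193 and 138 CPM (2.38, SE 0.52, q = 0.37), and in the BT intima 21.5 and 54.0 CPM against 169 and 203 CPM (2.31, SE 0.56, q = 0.28). The groups did not overlap in any tissue. No gene passed at q below 0.05 in either intima (0.0% of 8974 genes in the BA and 0.0% of 9273 genes in the BT), so a miss there says little of SRXN1. The paper, which tested RPKM data with edgeR, did call genes in both intimas at this threshold. SRXN1 and MT3 are among its intimal genes. The reason for the difference was not tested. No difference between layers or locations passed for SRXN1, with interaction log2 values of 0.05 (SE 0.55) to 0.74 (SE 0.52) between BT and BA and of -0.30 (SE 0.54) and 0.38 (SE 0.52) between media and intima, all at q of 0.78 or above.

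The peroxiredoxins, some of which are substrates of sulfiredoxin, moved less. Of PRDX1 to PRDX6, only PRDX1, PRDX4 and PRDX6 had a row. PRDX4, the form of the endoplasmic reticulum, was at 411 and 246 CPM in the sham BT media and at 689.7 and 518 CPM in the ligated BT media (0.89, SE 0.34, q = 0.22). PRDX1, in the cytosol, ran from 581 to 1457 CPM over the sham libraries and from 817 to 1119.7 CPM over the ligated libraries. PRDX6, which uses glutathione, kept the narrowest range of the group, 382 to 633 CPM over all 16 libraries, with ligation log2 values of 0.12 to 0.20 and SEs of 0.29 to 0.43. All 4 genes of this role had a positive value in 3 of the tissues, and 3 of 4 in the BT intima.

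Among the glutathione peroxidases, GPX1, the cytosolic enzyme, was higher in every ligated library. Its sham values ran from 605 to 1237 CPM with a median of 936 CPM, and its ligated values from 1298 to 2152 CPM with a median of 1451 CPM. The gap between the highest sham library (BA media, rabbit 4) and the lowest ligated library (BA intima, rabbit 5) was small, and with scaling by library size alone the groups overlapped. GPX1 did not pass in any tissue, with log2 fold changes of 0.53 to 0.79 and q of 0.24 to 0.87. GPX7 and GPX8, of the endoplasmic reticulum, overlapped between the flow groups as a whole, at 28.5 to 127 against 25.1 to 113 CPM and at 30.8 to 277 against 43.8 to 157 CPM.

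The glutathione transferases attach glutathione to reactive compounds, and the omega class member GSTO1 also reduces protein thiols. GSTO1 was at 143 and 109.7 CPM in the sham BT media and at 350.0 and 312 CPM in the ligated BT media (log2 fold change 1.40, SE 0.33, q = 0.048). In the BA media the same gene stood at 194 and 157 CPM against 494 and 579.5 CPM, a larger log2 value of 1.63 (SE 0.32) that did not pass (q = 0.064). In the intima the distance was smaller, at 111 and 152 CPM against 248 and 317 CPM in the BA (1.11, SE 0.45, q = 0.81) and at 187 and 166 CPM against 228 and 288 CPM in the BT (0.55, SE 0.38, q = 0.58). The difference between layers did not pass (BT interaction 0.87, SE 0.45, unadjusted p = 0.092, q = 1 in the edgeR quasi-likelihood test). The call in the BT media is close to the threshold and was lost with RLE scaling (q = 0.058) with edgeR's version 4 form (q = 0.069), without rabbit 5 (q = 0.236) and without rabbit 6 (q = 0.225).

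GSTK1, the mitochondrial and peroxisomal kappa class enzyme, went the other way. In the BA media GSTK1 was at 269.6 and 273 CPM in the sham rabbits and at 81.2 and 117 CPM in the ligated rabbits (-1.44, SE 0.36, q = 0.13). In the BT intima it was at 215 and 240.2 CPM against 75.3 and 118 CPM (-1.23, SE 0.42, q = 0.35). In the BA intima the ligated rabbits differed from each other, at 178 and 87.1 CPM, below the sham values of 249 and 224 CPM. The BT media was the closest, at 208 and 189.8 CPM against 136 and 148 CPM, and the sham and ligated ranges over all libraries (189.8 to 273 and 75.3 to 178 CPM) overlapped when library size alone was used.

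GSTP1, the pi class enzyme, was lower in both ligated libraries of the BT intima and of the BA media. In the BT intima it was at 2541 and 1915 CPM in the sham rabbits and at 969 and 742 CPM in the ligated rabbits (-1.38, SE 0.43, q = 0.33), and in the BA media at 819 and 977 CPM against 738 and 399 CPM (-0.65, SE 0.35, q = 0.46). In the BT media, both ligated libraries (698 and 701 CPM) lay slightly above both sham libraries (565 and 667 CPM). That difference between layers had an interaction log2 value of 1.58 (SE 0.47) with an unadjusted p of 0.010 in the edgeR quasi-likelihood test and q = 0.97, so it did not hold after adjustment. The remaining transferases showed no common direction, and over the 9 or 10 transferases tested in a tissue the median log2 value ran from -0.93 in the BT intima to 0.03 in the BT media.

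Of the metallothioneins only MT3 and MT4 had a row, so MT1 and MT2 genes could not be followed. MT3, the one with a count, was lower after ligation in every tissue. In the BT intima MT3 was at 65.4 and 42.7 CPM in the sham rabbits and at 1.30 and 2.06 CPM in the ligated rabbits (log2 fold change -5.0, SE 0.70, unadjusted p = 0.00029, q = 0.25 in the edgeR quasi-likelihood test). In the BA intima it was at 25.2 and 21.4 CPM against 6.71 and 0.171 CPM (-2.73, SE 1.34, q = 0.86). The ligated BA intima thus spanned a wide range, with rabbit 6 close to 0. In the media MT3 was at 57.3 and 34.7 CPM against 7.91 and 5.24 CPM in the BA (-2.81, SE 0.68, q = 0.12) and at 41.5 and 20.8 CPM against 8.41 and 8.76 CPM in the BT (-1.84, SE 0.72, q = 0.23). The sham range of 20.8 to 65.4 CPM and the ligated range of 0.171 to 8.76 CPM did not overlap under any scaling tried. In the BT the distance was greater in the intima than in the media (interaction 3.23, SE 0.90, unadjusted p = 0.0074), but this too did not hold after adjustment (q = 0.97 in the edgeR quasi-likelihood test).

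MT3 is best known from brain. The brain parenchyma markers (6 of 7 in the table, AQP4 at 0 in every library and GFAP at no more than 2.11 CPM) summed to at most 10.9 CPM in any library. The leptomeningeal and fibroblast list was lower after ligation in each layer. Its values and those of MT3 can be set side by side where they cross. The ligated BA intima of rabbit 5 had a list sum of 4229 CPM and MT3 at 6.71 CPM. The sham BA intima of rabbit 4 had a lower list sum of 3840 CPM and MT3 at 21.4 CPM. The genes of the list did not move together in that pair. DCN was higher in the ligated library (1940 against 8.15 CPM), as were COL1A2, COL1A1 and SLC13A4. OGN (1573 against 2884 CPM), OMD (21.2 against 320 CPM) and LUM (0 against 9.04 CPM) were lower there, as MT3 was. Apart from that pair of libraries, the list and MT3 separated the flow groups of a layer in the same way, and the part of these cells in the MT3 values was not tested. For SRXN1 and the blood list, the ligated BA media of rabbit 6 had a list sum of 52.9 CPM and SRXN1 at 116 CPM, and the sham BA media of rabbit 4 a higher sum of 76.1 CPM and SRXN1 at 34.0 CPM. Of the list, ALAS2 (8.65 against 46.0 CPM) and PTPRC (4.98 against 11.8 CPM) were lower in that ligated library. S100A9 (32.0 against 12.3 CPM) and S100A8 (7.34 against 6.05 CPM) were higher there, as SRXN1 was. The part of blood in the SRXN1 values was not tested.

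**Figure D2:**
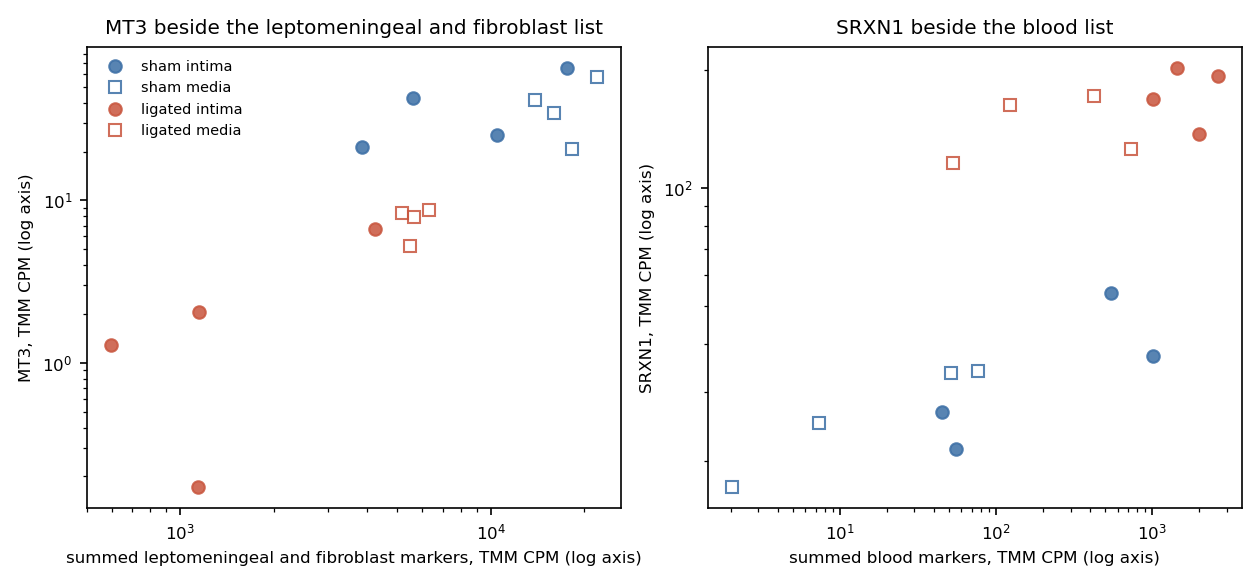
MT3 against the summed leptomeningeal and fibroblast markers (left) and SRXN1 against the summed blood markers (right), in TMM-scaled CPM on log axes, 1 point a library, filled for intima and open for media, blue for sham and red for ligated. The ligated points of MT3 lie low, between 0.171 and 8.76 CPM, and mostly to the left of the sham points of the same layer. Across layers, ligated media points lie to the right of some sham intima points. The ligated points of SRXN1 lie at 116 to 203 CPM over a blood list range of 52.9 to 2630 CPM.

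Haem oxygenases break down haem to biliverdin, carbon monoxide and iron. HMOX2, the constitutive form, was higher in every ligated library, at 160.2 to 405 CPM against 69.4 to 141 CPM. In the BT intima it was at 125 and 119 CPM in the sham rabbits and at 405 and 305 CPM in the ligated rabbits (1.55, SE 0.40, q = 0.28), and in the BA intima at 114 and 141 CPM against 293 and 364 CPM (1.37, SE 0.44, q = 0.73). The log2 values in the media were 1.10 (SE 0.35, q = 0.23) in the BA and 1.08 (SE 0.37, q = 0.17) in the BT. HMOX1, the inducible form, was scarce, at 0 to 16.4 CPM, with its highest value in the sham BT intima of rabbit 3, and it showed no shared direction. The quinone reductase NQO2 was at 13.8 and 16.3 CPM in the sham BT intima and at 46.7 and 39.4 CPM in the ligated BT intima (1.52, SE 0.55, q = 0.37). NQO1, the other quinone reductase, ran from 6.68 to 39.4 CPM in the sham and from 0 to 23.1 CPM in the ligated libraries.

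Further enzymes of the thioredoxin and glutathione systems did not pass in any tissue. TXNRD1, the cytosolic thioredoxin reductase, ran from 50.5 to 91.6 CPM in the sham and from 34.5 to 102 CPM in the ligated libraries, with ligation log2 values of -0.22 to 0.34 and SEs of 0.42 to 0.59. GCLC and GCLM, the subunits of the enzyme that limits glutathione synthesis, were low at 0 to 25.3 CPM and 2.10 to 17.9 CPM, and their direction varied with the tissue. The transcription factor NFE2L2 had ligation log2 values of -0.36 to 0.21, with SEs of 0.32 to 0.45.

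SOD1, the cytosolic superoxide dismutase, ran from 519.5 to 1168 CPM in the sham and from 618 to 905 CPM in the ligated libraries, with ligation log2 values of -0.05 to 0.33 (SEs 0.29 to 0.45). SOD3, the extracellular form, was at no more than 2.93 CPM. Catalase (CAT) was at 18.1 to 34.8 CPM in the ligated media and at 35.7 to 89.7 CPM in the sham media, so that these groups did not overlap, while in the intima the ligated values of 67.5 to 94.1 CPM overlapped the sham values of 48.8 to 80.5 CPM. The log2 values for CAT were -1.29 (SE 0.61, q = 0.41) in the BA media and -0.70 (SE 0.54, q = 0.55) in the BT media.

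On the source side, NOX4, the oxidase that mainly releases hydrogen peroxide, had its highest level in the sham media. NOX4 was at 50.9 and 9.81 CPM in the sham BA media and at 0.527 and 5.77 CPM in the ligated BA media (-3.17, SE 1.20, q = 0.31). In the BT media it was at 13.4 and 5.97 CPM against 0.935 and 0 CPM (q = 0.25). In the BA intima, both ligated libraries were at 0, and the sham mean of 3.78 CPM was at least 9.07-fold higher than the limit of 3 counts a library. NOX1 had counts in 2 libraries only, both ligated intimas (4.96 and 3.02 CPM), and NOX5 in 1 library. Of the other oxidases' parts, which are not among the 43 genes, the DUOX2 maturation factor DUOXA2 rose in the BT media, from 0 CPM in both sham libraries to 17.1 and 7.36 CPM (at least 18.1-fold, q = 0.049), and it was at 69.4 and 61.8 CPM in the ligated BT intima against 0 CPM in the sham.

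TXNIP, which binds and inhibits thioredoxin, was lower after ligation in the group means of every tissue, but the values overlapped in the BA intima and the BT media and no tissue passed (log2 fold changes -0.93 to -0.65, SEs 0.45 to 0.57, q of 0.41 to 0.86). In the BT intima TXNIP was at 592.5 and 318 CPM in the sham and at 282 and 213 CPM in the ligated rabbits. The highest of these came from rabbit 3, whose BT intima stands apart in several members, and in the BT media the sign turned without rabbit 4 (0.46, SE 0.61, q = 0.74). The thioredoxin-like TXNL4A, a spliceosomal protein in spite of its name, was at 30.2 and 18.9 CPM in the sham BT media and at 53.9 and 166 CPM in the ligated BT media (2.18, SE 0.57, q = 0.072). Its ligated value thus rested largely on rabbit 6, without which the log2 value was 1.14 (q = 0.74). TXNDC16 was at 2.54 and 5.46 CPM in the sham BA intima and at 3.59 and 1.76 CPM in the sham BT intima, and at 0 CPM in all 4 ligated intimal libraries, which makes the sham means at least 9.60-fold and 10.6-fold higher.

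**Figure D3:**
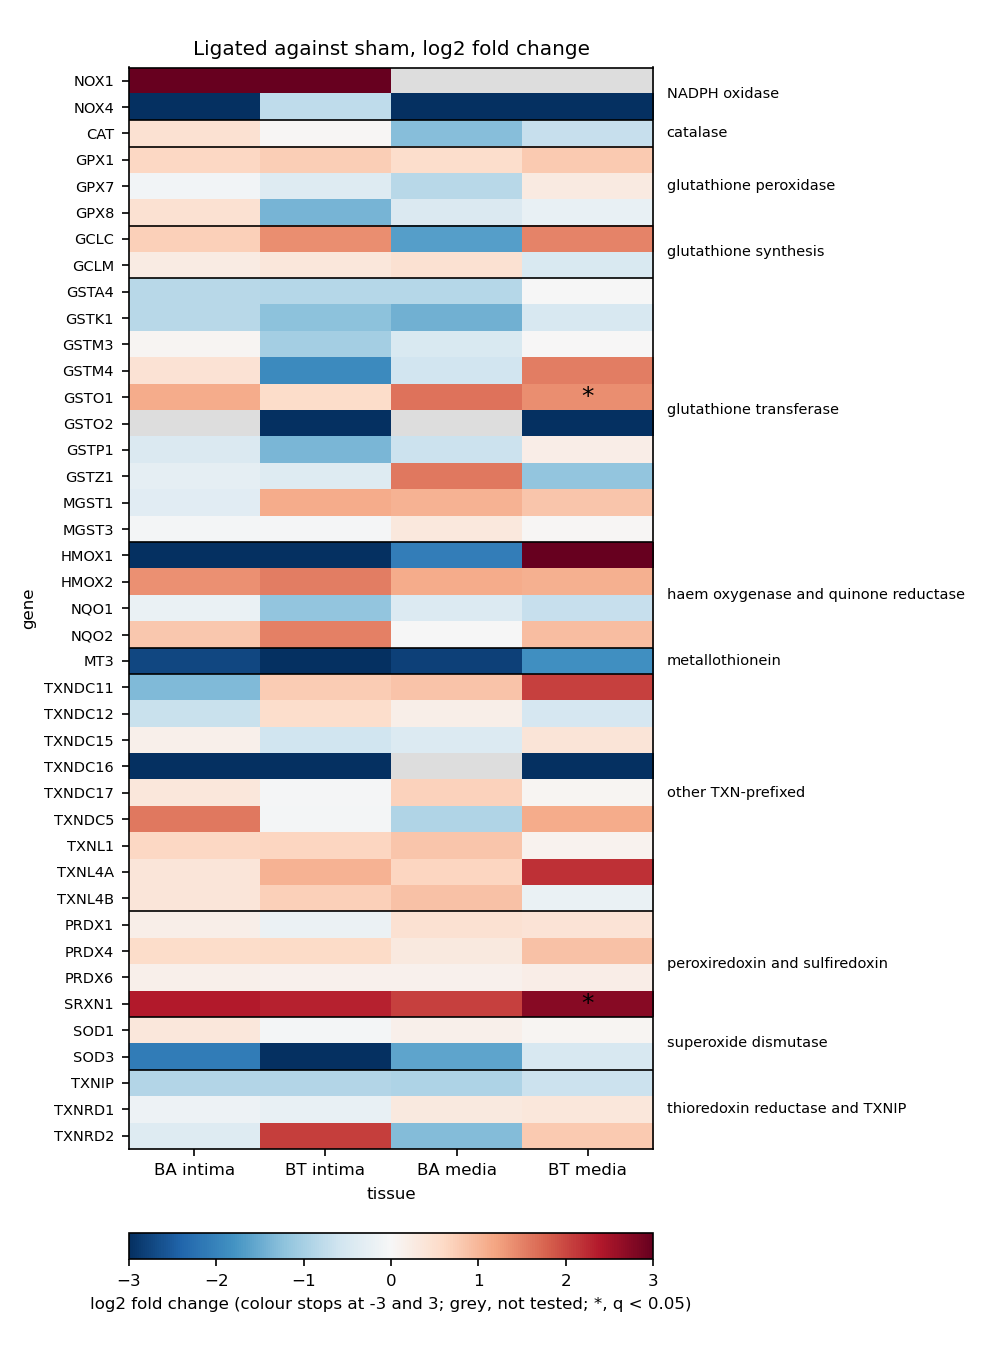
Log2 fold change of ligated against sham for each member tested in at least 1 tissue, by role, with red for higher and blue for lower in the ligated rabbits, grey for not tested and a star for q below 0.05. SRXN1 and HMOX2 are red and MT3 is blue in all 4 tissues, and the 2 stars are SRXN1 and GSTO1 in the BT media.

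Counted over the list, a member was tested where its mean was above 1 CPM in one or both flow groups, which let in 40 (BA) and 41 (BT) of the 43 members for the intima and 38 (BA) and 40 (BT) for the media. Members near that limit, such as TXNDC16 and GSTO2, entered through 1 group alone. With edgeR, 0 members passed in either intima, and 5 in the BA and 7 in the BT had an unadjusted p below 0.05, against 5.95% and 11.6% of all genes. DESeq2 called 1 of 38 and 4 of 38 members, where it called 1.43% and 7.02% of all genes. In the BA media 0 members passed, where 0.807% of all genes did, and 8 had an unadjusted p below 0.05, against 13.6%. DESeq2 called 4 of 34 members there and 6.34% of all genes. In the BT media 2 members passed (5.0%, against 2.35% of all genes), and 8 had an unadjusted p below 0.05, against 16.0%. DESeq2 called 3 of 37 members there (8.11%) and 7.56% of all genes. The median log2 fold change of the tested members was 0.16 for the BA and -0.05 for the BT in the intima, beside -0.10 and -0.13 over all genes tested. For the media the values were 0.05 at the BA and 0.15 at the BT, beside -0.15 and 0.03.

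Both ligated libraries lay above both sham libraries for 9 of 40 tested members in the BA intima, against 15.4% of all genes. In the BT intima this held for 10 of 41, against 20.4%. It held for 8 of 38 in the BA media, against 21.0%, and for 14 of 40 in the BT media, against 25.4%. Both lay below for 8 of 40 in the BA intima, against 20.0% of all genes, and for 9 of 41 in the BT intima, against 25.6%. This held for 10 of 38 in the BA media, against 26.0%, and for 8 of 40 in the BT media, against 23.1%. These counts carry no test. The 14 of the BT media were GCLC, GPX1, GSTM4, GSTO1, GSTP1, HMOX1, HMOX2, PRDX1, PRDX4, SRXN1, TXNDC11, TXNDC15, TXNDC5 and TXNL4A.

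One library stood apart. The sham BT intima of rabbit 3 had GSTM3 at 1223 CPM, where the other 15 libraries ran from 188 to 544 CPM, and in all 13 of the 43 members had their highest level there. Beside GSTM3, these were GPX8 (277 CPM), GSTA4 (50.5 CPM), GSTM4 (23.3 CPM), GSTP1 (2541 CPM), MT3 (65.4 CPM), TXNIP (592.5 CPM), NQO1 (39.4 CPM), HMOX1 (16.4 CPM), PRDX1 (1457 CPM), SOD1 (1168 CPM), NOX5 and TXNRD3. The share of all genes with their highest level in this library was not counted. The 13 can therefore not be read as a trait of these members. The macrophage marker sum of 1096 CPM was also the highest in this library. Among the intimal libraries, its leptomeningeal and fibroblast sum of 17666 CPM was the highest and its endothelial sum of 1043 CPM the lowest. The part of these cells in the levels of that library was not tested. Without rabbit 3, the ligation log2 values of the BT intima were -4.66 for MT3 (SE 1.08, q = 0.24), -1.15 for GSTP1 (SE 0.39, q = 0.37) and -0.35 for TXNIP (SE 0.43, q = 0.80), and no member passed, as with it.

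The 46 partner genes of the same pathways that had counts, of 56 listed, add 4 calls with ligation beside DUOXA2. RAC1, a subunit of the NADPH oxidase complex with many other roles, was at 71.2 and 68.4 CPM in the sham and at 293 and 286 CPM in the ligated BT media (2.06, SE 0.34, q = 0.0092). TFRC, the transferrin receptor, was at 241 and 149 CPM against 619.6 and 601 CPM there (1.66, SE 0.33, q = 0.026). SLC7A11, which imports cystine for glutathione synthesis, fell in both media, from 57.8 and 93.6 to 3.16 and 1.31 CPM in the BA (-5.14, SE 0.73, q = 0.025) and from 7.55 and 36.0 CPM to 0 in both libraries in the BT (at least 33.9-fold, q = 0.018). The leptomeningeal and fibroblast markers were lower in the same libraries, and their part in the SLC7A11 values was not tested. In the BT media 4 of 40 partners tested passed with edgeR (10.0%, against 2.35% of all genes). There 11 had an unadjusted p below 0.05 (27.5%, against 16.0%). In the BA media 1 of 38 passed (2.63%, against 0.807%), and 6 had an unadjusted p below 0.05 (15.8%, against 13.6%). DESeq2 called 7 of 38 in the BT media and 5 of 36 in the BA media, where it called 7.56% and 6.34% of all genes. In the intima no partner passed with edgeR. In the BA 7 of 39 partners tested had an unadjusted p below 0.05 (17.9%, against 5.95% of all genes), and DESeq2 called 3 of 38 where it called 1.43% of all genes. In the BT 10 of 42 had an unadjusted p below 0.05 (23.8%, against 11.6%), and DESeq2 called 8 of 41 where it called 7.02% of all genes. The partner list was chosen with earlier results of these data known, and the paper has DUOXA2 and SLC7A11 among its intimal genes. A share above that of all genes is therefore partly built in and says nothing of the pathways as a whole. PGD, a pentose phosphate enzyme that supplies NADPH, was wholly lower after ligation, at 51.7 to 110.3 CPM against 156 to 334 CPM, and HIF1A, RAC1, TFRC and GLRX3 were wholly higher, of 41 partners with a mean above 1 CPM, against 1.26% of all genes wholly higher and 0.848% wholly lower. Of these 5, RAC1 and TFRC passed in the BT media and the others in no tissue.

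Between the layers, TXNIP was the one member that passed. Its intimal level was 141 to 592.5 CPM with a median of 334 CPM, and its medial level 34.3 to 116 CPM with a median of 56.3 CPM. The ranges did not overlap, and the intima was higher in 8 of 8 pairs, each of 1 rabbit at 1 location, by 2.52-fold at the least, 4.91-fold at the median and 17.3-fold at the most. With counts summed over the BA and BT of each rabbit and rabbit as a block, the log2 fold change was 2.41 (SE 0.22, 4 rabbits, q = 0.0050), where 4.14% of all 9074 genes passed. Of the 8 endothelial markers, PECAM1, CDH5, TEK, CLDN5 and EMCN also passed as higher in the intima (2.83 to 5.18), VWF and TIE1 did not pass (2.64 and 2.11), and KDR had a log2 value of -0.22.

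GSTP1, HMOX2, MGST1 and MGST3, the last 2 being membrane-bound transferases, were also higher in the intima in all 8 pairs, without passing. These 5 of the 38 members tested stand against 5.41% of all genes that were higher in every pair, and no member was lower in every pair, against 3.95%. The median ratio of intima to media was 1.66 for HMOX2 (0.72, SE 0.18, q = 0.076), 1.66 for GSTP1 (0.78, SE 0.19, q = 0.067) and 1.44 for MGST3 (0.61, SE 0.20, q = 0.15). MGST1 was at 15.1 to 145 CPM in the intima and at 0 to 21.3 CPM in the media (2.91, SE 0.88, q = 0.13). In the other direction, GPX7 and GPX8 were lower in the intima in 7 of 8 pairs, with the sham BT of rabbit 3 as the exception in both (-1.16, SE 0.32, q = 0.097 and -0.99, SE 0.28, q = 0.11). In all, 9 of 38 tested members had an unadjusted p below 0.05, or 23.7%, against 19.4% of all genes. The antioxidant enzymes PRDX1, PRDX6 and SOD1 had layer log2 values of 0.03, -0.04 and 0.21 with SEs of 0.13 to 0.16.

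**Figure D4:**
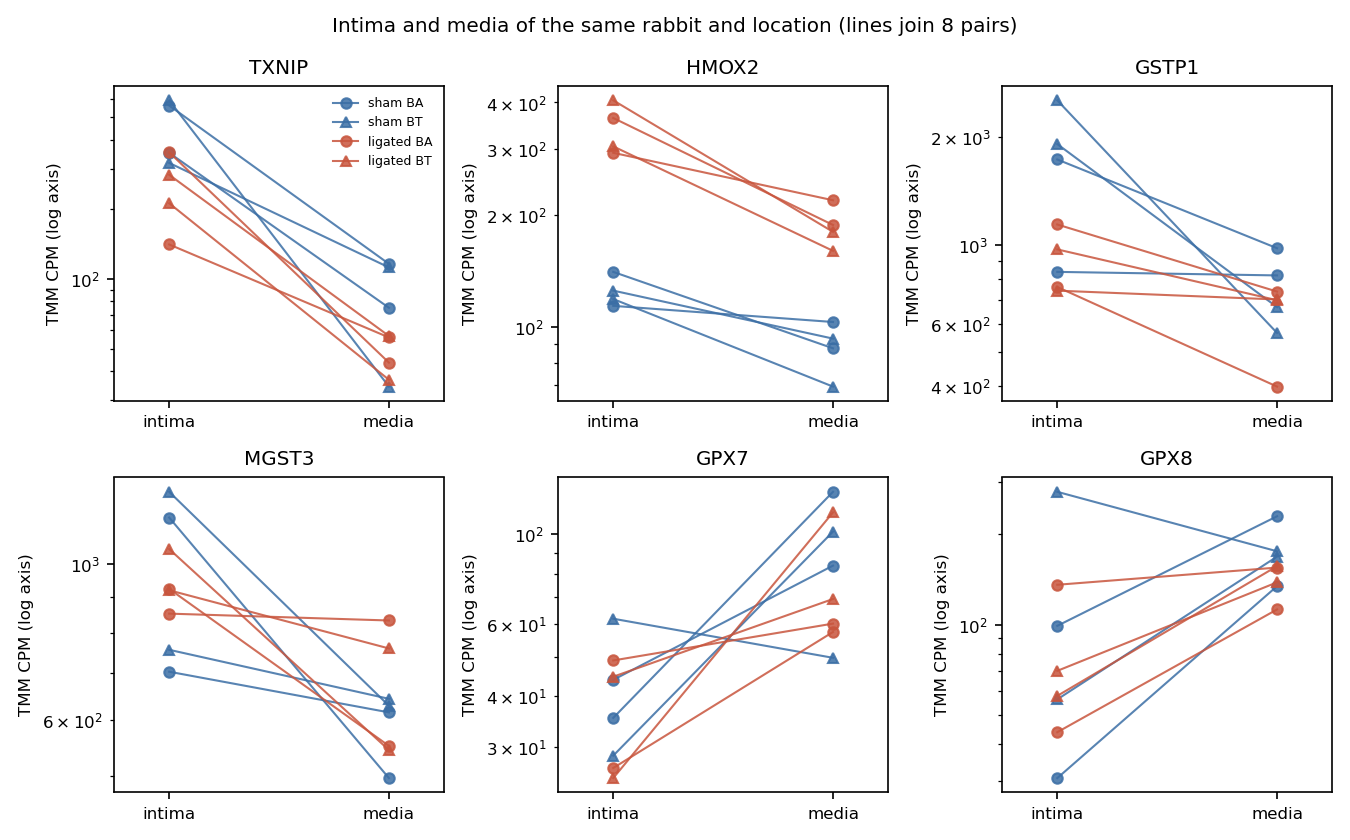
Levels of 6 members in the intima and the media, in TMM-scaled CPM on log axes, with 8 lines that each join the layers of 1 rabbit at 1 location, circles for the BA, triangles for the BT, blue for sham and red for ligated. All 8 lines fall from intima to media in TXNIP, HMOX2, GSTP1 and MGST3, and 7 of 8 rise in GPX7 and GPX8.

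Between the locations, no member passed in either layer. In the intima, edgeR called 0 members, 0 had an unadjusted p below 0.05 against 3.83% of all genes, and 0.011% of all genes passed. There DESeq2 also called 0 members, where it called 0.321% of all genes. In the media edgeR called 0 members where 0.0227% of all genes passed, and DESeq2 called 0 where it called 0.639% of all genes. With edgeR 2 members had an unadjusted p below 0.05 against 5.28% of all genes. These were GSTO1 (-0.59, SE 0.21, q = 0.85) and TXNL4A (-1.03, SE 0.38, q = 0.85), both lower in the BT media than in the BA media.

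The change with ligation was not found to differ between locations or layers for any member. For BT against BA in the intima 0 members passed with either tool (0.0% of all genes with edgeR and 0.637% with DESeq2). With edgeR 0 members had an unadjusted p below 0.05, against 3.44%. For BT against BA in the media 0 members passed with either tool, where 0.502% of all genes did with edgeR and 1.94% with DESeq2. With edgeR 5 members had an unadjusted p below 0.05, against 9.07%. These 5 were GSTP1 (0.90, SE 0.33, q = 0.31), GSTK1 (0.98, SE 0.42, q = 0.43), TXNL4A, TXNL1 and GPX7. For media against intima 0 members passed with either tool in the BA (0.0% of all genes with edgeR and 0.159% with DESeq2). There 0 members had an unadjusted p below 0.05 with edgeR, against 2.44%. In the BT 0 members passed with either tool (0.0% of all genes with edgeR and 1.23% with DESeq2). There 2 members, MT3 and GSTP1 as given above, had an unadjusted p below 0.05 with edgeR, against 4.84%.

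The naming of some genes limits what their counts mean. Reads that fit several copies of a gene were left out by the authors' filter on unique mapping, so the levels of the GSTM and GSTA genes and of MT3, which have close relatives, are uncertain. In the RefSeq gene table of another rabbit assembly (mOryCun1.1), where 40 of the 43 symbols were found, 18 members overlap another gene, among them HMOX2, TXNIP, NOX4 and TXNL4A. The library kit does not mark strand, so reads of overlapping genes cannot be told apart. The authors counted with the setting for reverse-stranded libraries, and its effect on these counts could not be checked from the table. SRXN1, GPX1, MT3 and GSTK1 overlap no other gene in that table, and GSTO1 was not found in it.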

How the data were processed

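RNA from laser-microdissected intima and media was amplified with SMART-Seq v4, made into Nextera libraries and sequenced as single reads. Per the paper's methods, the authors used STAR to align untrimmed reads to OryCun2.0 and assigned unique alignments to Ensembl genes with featureCounts 1.6.2. The deposited counts are not normalized and cover 13788 symbols. A further row names no gene, took 13.8% to 18.7% of a library and was dropped. Dates stood in place of 22 symbols and were kept as they were.

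Groups came from the labels, and the replicate is the rabbit. The deposited counts were tested with edgeR 4.0.16 in R 4.3.3 (TMM scaling, quasi-likelihood F test in its older form, legacy = TRUE), on all genes with a mean above 1 CPM in at least 1 group of the comparison, and q-values were adjusted by Benjamini-Hochberg over all genes tested. SEs are the log2 fold change divided by the root of F. Ligated and sham tissue came from different rabbits, so those comparisons are unpaired. Layers and locations were compared with rabbit as a block, since the labels give the same animals for them. Over 8702 genes, the difference between the 2 rabbits of a group correlated between tissues at r = 0.08 to 0.41 in the sham rabbits. In the ligated rabbits it was -0.03 to 0.08. Libraries of 1 rabbit come from the same animal and were not treated as independent, and p-values rest on 2 or 4 rabbits.

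Folds against a group with 0 counts were computed against 3 counts a library, which covers counting error only. Alternatives were RLE scaling, library size alone, all genes with a count, DESeq2 1.42.0, edgeR's version 4 form, a fit over the 8 libraries of a layer, other blocks, and leaving out each rabbit. All tests were first tried on simulated counts. The members, partner genes and marker lists were chosen with earlier results of these data known. Full statistics were given for members with q below 0.05 and for the 3 members with the smallest p in each ligation comparison, and other members were named by role after their values were seen. Sequences of the genes were not used here.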

Additional observations from a re-analysis of the deposited data

How the results depend on the processing

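For 12 genes of the text in the 4 ligation comparisons, 4 of 479 alternatives gave the other sign. These were TXNIP in the BT media and GSTP1 in the BA intima without rabbit 4, and SLC7A11 in the BA intima without rabbit 4 and without rabbit 5. Of other genes, only TXNDC16 in the BA intima and TXNL4A in the BT media were followed gene by gene through the alternatives of these comparisons. The count of members with q below 0.05 after ligation moved in the BA intima from 0 to 1 (SRXN1) with all genes with a count and with DESeq2 (1.16% and 1.43% of all genes called), and in the BT intima from 0 to 2 and 4 under the same settings (3.12% and 7.02%). In the BA media it moved from 0 to 5 with all genes with a count, 4 with DESeq2 and 3 with 1 fit over the 8 libraries of the layer, where 4.89%, 6.34% and 2.40% of all genes were called. In the BT media it moved from 2 to 1 with RLE scaling and with edgeR's version 4 form (2.13% and 1.73% of all genes). Leaving out a rabbit left 1 rabbit in a flow group, so the calls of those fits are not counted here. In the BT media SRXN1 did not pass without rabbit 6, nor did GSTO1 without rabbit 5 or without rabbit 6. The cause was not tested.

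Between the layers the count moved from 1 to 3 with library size alone and with the version 4 form (4.50% and 7.74% of all genes). It was 2 with all genes with a count and 6 with DESeq2 (4.18% and 15.2% of all genes). With each rabbit left out in turn the count was 1 to 4, where 0.188% to 5.83% of all genes passed. With no replicate block it was 0 (TXNIP, q = 0.080), and with the 8 rabbit and location pairs as the replicate block it was 7 (8.98% of all genes). The other comparisons with rabbit as a block kept 0 members with no replicate block. The interaction fits with a rabbit left out also had 1 rabbit in a flow group, and their calls are not counted here. With library size alone, 1 member (MT3) in place of 2 lay wholly below after ligation, and 3 in place of 4 lay wholly above; these 8 against 8 checks were chosen after seeing the data.

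For the 13 fits of named members, 133 alternatives kept the direction, with 107 on the same side of the threshold, 20 now past it and 6 no longer past it. SRXN1 in the BT media passed in 9 of 10 alternatives, GSTO1 there in 6 of 10 and TXNIP between layers in 12 of 13. MT3 in the BT intima depended on the tool, with q = 0.25 in the main edgeR fit and q = 1.8e-09 with DESeq2. Library size alone moved the median log2 value of all genes to -0.29 in the BA media, 0.17 in the BT media and 0.25 between the layers, from -0.15, 0.03 and 0.07. Without rabbit 6 the median of all genes was -0.06 in the BT media. For genes near 0 counts, such as NOX1, TXNDC16 and GSTO2, the depth sets the limit.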
